A study of Mus musculus with 14 samples.

Results

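The genes of the Notch signalling pathway described here were 10: the receptors Notch1, Notch2, Notch3 and Notch4, the ligands Jag1, Jag2, Dll1, Dll3 and Dll4, and the target gene Hes1. They were taken from the peak lists of Ring1b, H2AK119ub and H3K27me3, as every row whose gene name entry, split at the slash, held one of these names. This gave 43 of 26186 rows over 6 replicate lists. By list they were 8 of 4452 Ring1b rows in replicate 1 and 7 of 3058 in replicate 2, 10 of 3800 and 13 of 5712 H2AK119ub rows, and 3 of 6040 and 2 of 3124 H3K27me3 rows. All 10 genes were named in at least 1 list, against 29.9% of 21631 protein-coding genes.

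Chromatin immunoprecipitation and sequencing (ChIP-seq) had been applied to basal epidermal progenitors of newborn mice, in a study of Polycomb repressive complex 1 (PRC1) in skin development. The labels gave 14 samples in 7 groups of 2 replicates, and the 6 samples of 3 groups (Ring1b, H2AK119ub and H3K27me3) had the peak lists used here. All groups shared the genotype Krt14-RFP; Krt10-H2B-GFP and the age of postnatal day 0. The animals carried a red reporter driven by Krt14, a keratin gene of the basal layer, and a green histone reporter driven by Krt10, a keratin gene of the layers above. Cells from the back skin were sorted as positive for Sca1, high for red and negative for green, with 6000000 cells per Ring1b precipitation and 400000 per histone mark. The labels do not say whether the replicates came from separate animals, so the spread between them may be technical.

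Notch receptors are single-pass membrane proteins that are cleaved when they bind a Jagged or Delta-like ligand on a neighbouring cell. The released intracellular part enters the nucleus, joins the DNA-binding protein Rbpj and switches on target genes such as Hes1, which encodes a bHLH repressor. In the epidermis Notch1 and the ligand Jag2 are known to be active genes, and Notch signalling helps basal cells move into the spinous layer. Expression was not measured in these lists. Ring1b is the ubiquitin ligase subunit of PRC1, H2AK119ub is the histone mark that it writes, and H3K27me3 is the mark of Polycomb repressive complex 2. In mammals these complexes lie mainly at CpG-rich promoters.

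The DNA just before the start site is therefore shown for 5 of the genes. The sequences are the 250 bases before the RefSeq start site on the assembly GRCm38.p6, the one behind mm10, written 5′ to 3′ on the strand of the gene, with each CpG in capitals. Notch1 (chr2:26503823-26504072, minus strand) and Jag2 (chr12:112929496-112929745, minus strand) are the pair active in epidermis. Notch2 (chr3:98013288-98013537, plus strand) had the highest mean Ring1b enrichment, Dll4 (chr2:119325534-119325783, plus strand) was the member with all 3 peaks, and Notch4 (chr17:34564045-34564294, plus strand) had no Ring1b peak.
Notch1: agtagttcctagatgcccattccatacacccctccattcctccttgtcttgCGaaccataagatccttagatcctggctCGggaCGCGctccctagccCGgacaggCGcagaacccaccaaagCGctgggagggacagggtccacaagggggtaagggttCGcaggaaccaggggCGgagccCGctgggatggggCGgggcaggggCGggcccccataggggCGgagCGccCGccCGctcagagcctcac
Jag2: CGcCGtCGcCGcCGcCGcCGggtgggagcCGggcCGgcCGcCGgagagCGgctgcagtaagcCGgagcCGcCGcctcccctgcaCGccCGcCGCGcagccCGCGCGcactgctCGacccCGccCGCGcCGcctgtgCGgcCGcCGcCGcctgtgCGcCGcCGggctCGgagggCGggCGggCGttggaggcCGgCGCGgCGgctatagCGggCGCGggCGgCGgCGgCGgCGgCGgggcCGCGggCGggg
Notch2: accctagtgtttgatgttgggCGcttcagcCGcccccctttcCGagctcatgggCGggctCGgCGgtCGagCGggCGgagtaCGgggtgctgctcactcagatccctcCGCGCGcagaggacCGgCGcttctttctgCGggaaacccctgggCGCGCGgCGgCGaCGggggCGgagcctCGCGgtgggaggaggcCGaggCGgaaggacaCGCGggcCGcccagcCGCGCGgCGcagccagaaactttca
Dll4: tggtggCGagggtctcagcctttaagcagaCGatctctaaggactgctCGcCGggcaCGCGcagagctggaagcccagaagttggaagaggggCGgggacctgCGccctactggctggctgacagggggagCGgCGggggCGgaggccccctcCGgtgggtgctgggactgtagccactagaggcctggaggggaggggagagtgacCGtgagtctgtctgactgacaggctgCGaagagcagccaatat
Notch4: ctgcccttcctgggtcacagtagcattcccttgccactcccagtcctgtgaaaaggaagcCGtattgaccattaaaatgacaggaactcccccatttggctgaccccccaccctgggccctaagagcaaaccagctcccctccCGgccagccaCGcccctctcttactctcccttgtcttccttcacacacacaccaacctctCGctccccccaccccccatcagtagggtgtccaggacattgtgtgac
The capitals show 16 CpGs before Notch1, 54 before Jag2, 34 before Notch2, 14 before Dll4 and 4 before Notch4. The median over 21037 such windows of protein-coding genes was 10. Notch4 had the fewest of the genes without a Ring1b promoter row. Of the others not printed, Notch3 had 17, Dll1 21 and 13 at its 2 start sites, and Dll3 10.

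No library totals were used here, and depth can be judged only from reads inside peaks. A median peak held 60 to 109 ChIP reads in the lists of Ring1b and H2AK119ub and 418.5 to 434 in those of H3K27me3. A gene without a row is one at which no peak was listed, and a weaker peak cannot be told apart from one held by fewer cells of the sorted population. The enrichment of a peak is given below as the ratio of its deposited ChIP reads to its deposited input reads, which is not scaled for library size and is compared only within an antibody. Brackets hold exact 95% Clopper-Pearson intervals, which cover counting error only. The input reads behaved as one shared set in 5 of the 6 lists: of 13359 cases where a peak of one of these lists lay inside a peak of another, the inner peak held more input reads on a strand in 4 (0.0299%). With H3K27me3 replicate 1 as one of the pair this occurred in 3669 of 10277 cases (35.7%). The SDs between Ring1b replicates and between H2AK119ub replicates therefore hold little of the counting error of the input. The input counts of H3K27me3 replicate 1 did not nest with those of the other lists, and whether they come from another library was not tested. Its peaks held 11.7 input reads per kb, against 22.0 to 24.0 in the other 5 lists. The ratios of the 2 H3K27me3 replicates are therefore not on one scale. As a check of the sort, 0 of 7 basal keratinocyte markers (Krt5, Krt14, Krt15, Trp63, Itga6, Itgb4 and Col17a1) had a promoter row of Ring1b or of H3K27me3 in any replicate, against 17.9% of protein-coding genes for Ring1b and 12.5% for H3K27me3. By the same rule it was 0 of 4 suprabasal and 0 of 3 leukocyte markers, 1 of 5 melanocyte markers (Sox10), 3 of 5 dermal fibroblast markers (Col1a1, Pdgfra and Twist2), 1 of 3 endothelial markers (Kdr) and 3 of 4 Merkel cell markers (Atoh1, Krt8 and Isl1). A promoter row of H2AK119ub in at least 1 replicate was found at 1 of 7 basal markers (Krt15, in both replicates), against 12.5% of protein-coding genes. It was found at 1 of 4 suprabasal (Krt1), 0 of 3 leukocyte and 1 of 5 melanocyte markers. For dermal fibroblast, endothelial and Merkel cell markers it was 3 of 5, 1 of 3 and 3 of 4. With rows of any class in at least 1 replicate, Ring1b was found at 2 of 7 basal markers (Itgb4 and Col17a1), against 19.4% of protein-coding genes. H3K27me3 was then found at 0 of 7 basal, 1 of 4 suprabasal (Krt10) and 1 of 3 leukocyte markers (Cd3e), against 15.5%. It was at 2 of 5 melanocyte and 4 of 4 Merkel cell markers. H2AK119ub was at 2 of 7 basal markers (Krt15 and Itgb4), against 15.6%. The lists are short, and the 0 of 7 for promoter rows of Ring1b and H3K27me3 does not set basal markers apart. A part of other cell types in the results was not tested.

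Ring1b lay at the promoters of 6 of the 10 genes in both replicates, namely Notch1, Notch2, Jag1, Jag2, Dll4 and Hes1, where 9.17% of protein-coding genes had it. The same 6 were found with rows of any location class in both replicates (10.2% of protein-coding genes) and with a promoter row in at least 1 replicate (17.9%), while a row of any class in at least 1 replicate added Dll1 and Dll3 (8 of 10, against 19.4%). H2AK119ub lay at the promoters of Dll4 and Hes1 in both replicates (2 of 10, against 6.91% of protein-coding genes), and at 5 further genes in 1 replicate (7 of 10 in at least 1, against 12.5%). By replicate the count was 4 of 10 in replicate 1 (against 7.82%) and 5 of 10 in replicate 2 (against 11.6%). With rows of any class it was 5 of 10 in both replicates (against 8.68%) and 9 of 10 in at least 1 (against 15.6%). Of these 5 genes, Notch2 and Dll3 had rows that did not overlap between replicates. H3K27me3 lay at Dll3 and Dll4 in both replicates (2 of 10, against 8.87%) and at Notch4 in replicate 1 (3 of 10 there, against 12.4%, and 2 of 10 in replicate 2, against 8.89%). The count of H3K27me3 in at least 1 replicate was also 3 of 10, against 12.5% for promoter rows and 15.5% for rows of any class, and rows of any class in both replicates gave 2 of 10, against 10% of protein-coding genes. Of the 10 genes Dll4 alone had promoter rows of all 3 (1 of 10, against 3.42%). Ring1b in both replicates with no H3K27me3 row in either was found at 5 of 10 genes, Notch1, Notch2, Jag1, Jag2 and Hes1 (against 3.72%), and 1 of these, Hes1, also had H2AK119ub in both (against 0.462%). The same 6 genes had a Ring1b promoter row in each replicate taken singly, where 16.3% of protein-coding genes had one in replicate 1 and 10.7% in replicate 2. A promoter row in any of the 6 lists was found at 9 of 10 genes, all but Dll1 (against 25.7%). Of the 43 rows 30 were classed as promoter, 9 as gene body and 4 as distal, where 57.7% of all rows were promoter rows. By antibody the promoter rows were 12 of 15 for Ring1b (77.5% of all its rows), 13 of 23 for H2AK119ub (47.9%) and 5 of 5 for H3K27me3 (51.6%). A peak of the other replicate overlapped 12 of 15 Ring1b rows (68.4% of all Ring1b rows), 10 of 23 H2AK119ub rows (59.3%) and 4 of 5 H3K27me3 rows (65.8%).

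**Figure D1:**
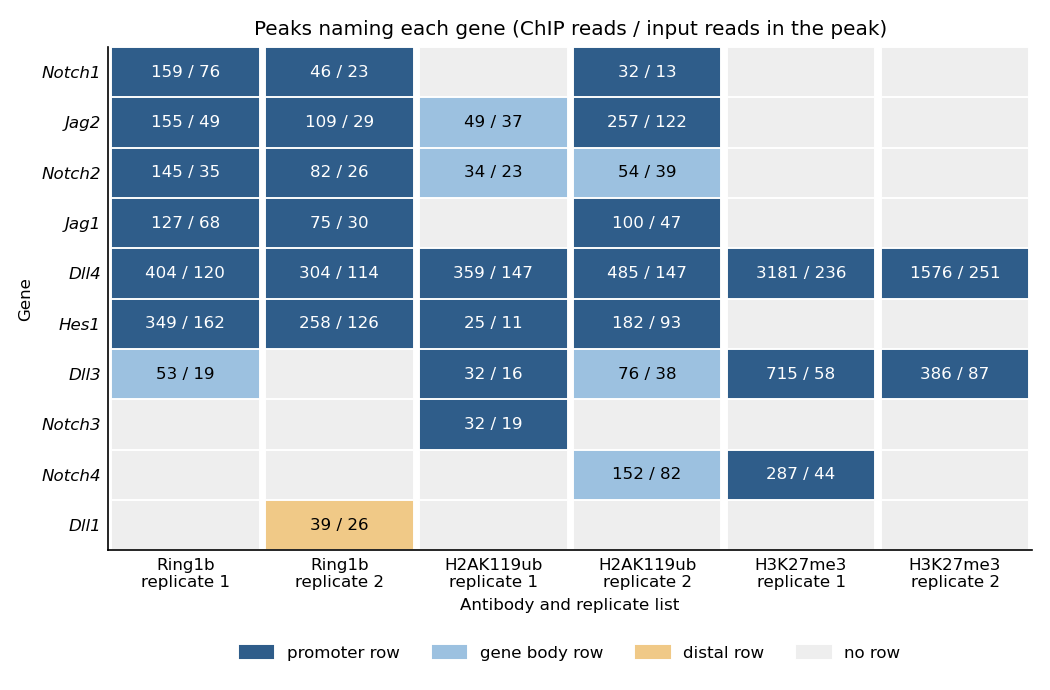
Location class of the peak naming each gene (rows) in each replicate list (columns), with its ChIP reads and input reads as a pair of numbers; where a list has several rows for a gene, the one of promoter class with the most ChIP reads is shown, or else the largest other. Ring1b fills both columns for 6 genes, H3K27me3 for Dll4 and Dll3, and Dll4 has a promoter row in all 6 lists.

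Among the receptors, Notch1 is the one with the best known role in keratinocyte differentiation. Its Ring1b peak ran from 26501328 to 26504400 on chromosome 2 (mm10, 3073 bp) in replicate 1, with 159 ChIP reads and 76 input reads, and from 26502578 to 26503622 (1045 bp) in replicate 2, with 46 ChIP reads and 23 input reads. The ratios were 2.09 (1.58 to 2.79) and 2.00 (1.19 to 3.46), or 2.05 ± 0.0651 (SD, n = 2), which was below the median of all Ring1b peaks in both lists (2.40 and 2.29). The replicate 1 peak covered the start site at 26503822, and the replicate 2 peak lay inside it and ended 200 bases into the gene. H2AK119ub was listed in replicate 2 only, over 508 bp near the lower limit of 500 bp seen in that list, with 32 ChIP reads and 13 input reads (2.46, 1.26 to 5.11). No H3K27me3 peak of either replicate lay within 20 kb of the start site.

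Notch2, a receptor with broad roles in liver, kidney and bone, had the highest mean Ring1b ratio of the 6 genes with a Ring1b promoter peak in both replicates. The peak was short, 1262 bp in replicate 1 (chromosome 3, 98012998 to 98014259, mm10) and 922 bp in replicate 2 (98013027 to 98013948), and covered the start site at 98013538 in both. It held 145 ChIP reads and 35 input reads in replicate 1 and 82 ChIP reads and 26 input reads in replicate 2, giving ratios of 4.14 (2.85 to 6.18) and 3.15 (2.01 to 5.11), or 3.65 ± 0.699 (SD, n = 2). These stood above 89.3% and 77.7% of the peaks in their lists. No peak of either histone mark lay within 20 kb of this start site. H2AK119ub rows inside the gene body, 52001 bases downstream in replicate 1 and 42642 bases downstream in replicate 2, did not overlap each other, had deposited p-values of 0.0661 and 0.446, and had ratios of 1.48 and 1.38, whose intervals (0.846 to 2.63 and 0.900 to 2.15) included 1.

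Notch3, a receptor of vascular smooth muscle, and Notch4, a receptor of endothelium, had no Ring1b peak within 20 kb of their start sites in either replicate. Notch3 was named once, by an H2AK119ub peak of 885 bp in replicate 1, 651 bases before the start site (chromosome 17, 32167541 to 32168425, mm10), with 32 ChIP reads and 19 input reads and an interval (0.926 to 3.14) that included 1. Notch4 had an H3K27me3 peak in replicate 1, with 287 ChIP reads and 44 input reads over 3394 bp (chromosome 17, 34565054 to 34568447, mm10), which began 759 bases inside the gene. Its ratio of 6.52 (4.74 to 9.18) stood above 30.3% of that list, and the replicate 2 list had no peak there. An H2AK119ub peak of replicate 2 lay 16077 bases downstream in the gene body, with 152 ChIP reads and 82 input reads. Both genes thus rested on peaks of single replicates.

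**Figure D2:**
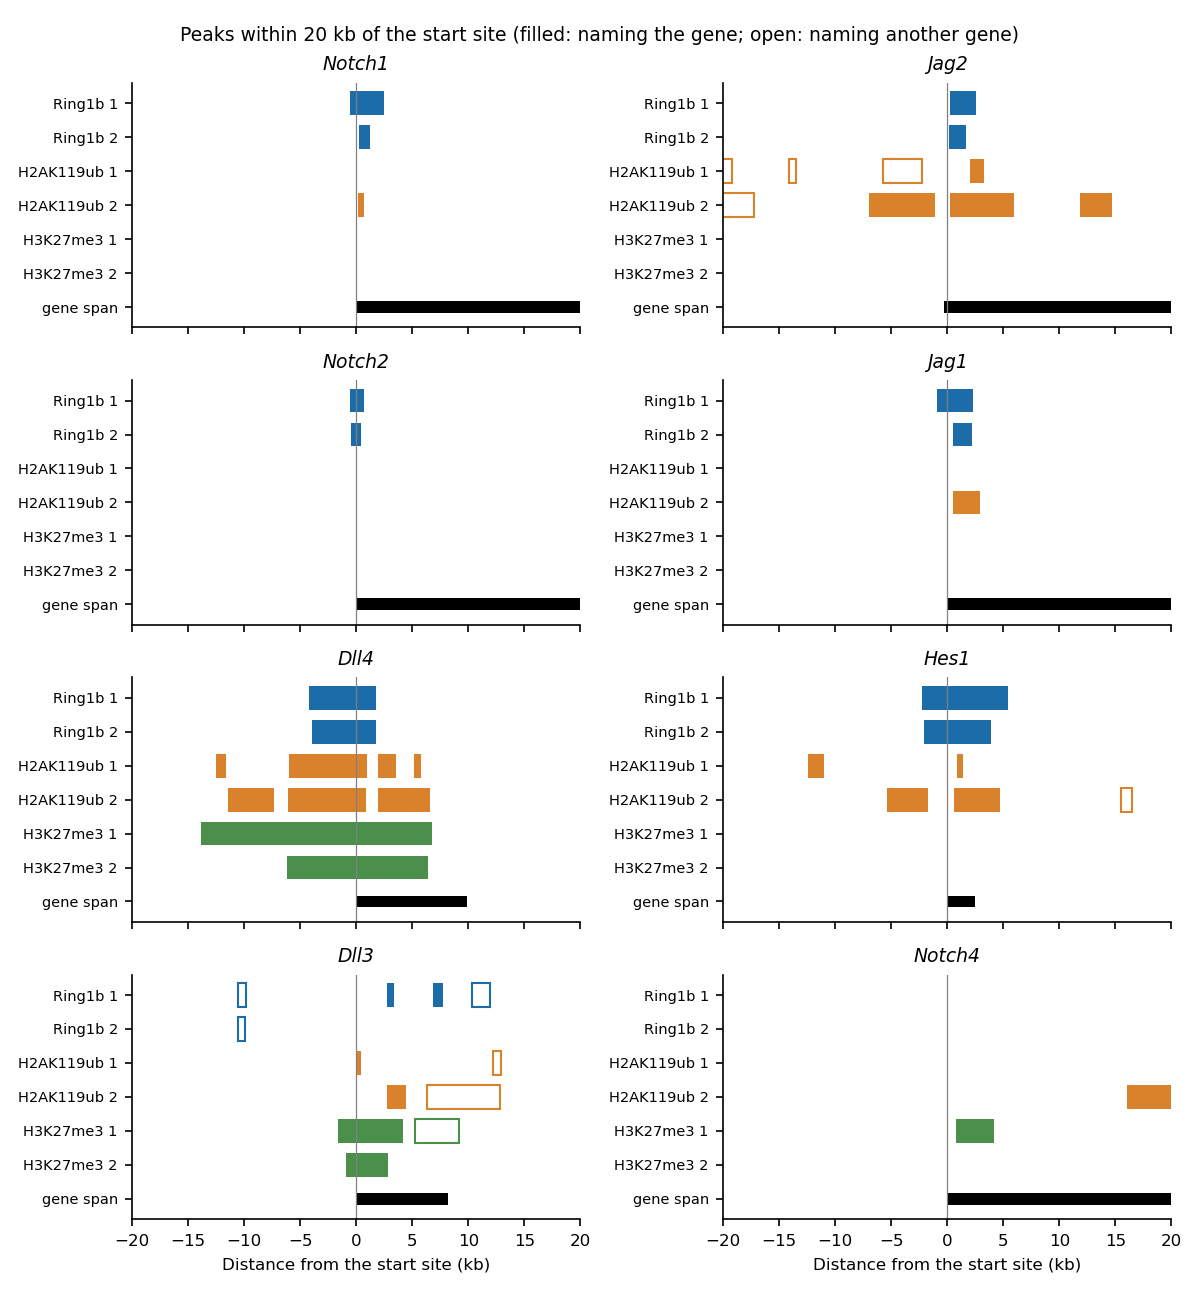
Peaks of the 6 lists around 8 of the genes, by distance from the RefSeq start site in kb, with transcription to the right (for Hes1 the zero is the lower end of the gene span and right is increasing coordinate); filled bars name the gene, open bars name another gene and black bars are gene spans. Peaks of all 3 antibodies are stacked over Dll4, while Notch1, Notch2, Jag1, Jag2 and Hes1 show Ring1b with no H3K27me3 bar.

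Jag2 encodes a ligand made by epidermal cells and presented to Notch receptors on their neighbours. Ring1b held 155 ChIP reads and 49 input reads in replicate 1 (chromosome 12, 112926895 to 112929237, mm10, 2343 bp) and 109 ChIP reads and 29 input reads in replicate 2 (112927791 to 112929309, 1519 bp). The ratios of 3.16 (2.28 to 4.46) and 3.76 (2.48 to 5.87), or 3.46 ± 0.421 (SD, n = 2), stood above 75.8% and 86.8% of their lists. Both peaks lay inside the gene and ended 258 and 186 bases short of the start site at 112929495, while the annotated gene span reached further, to 112929812, so that the 250 bases printed for Jag2 lie within that span.

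H2AK119ub around Jag2 was broader than the gene names in the lists show. Replicate 2 had promoter rows on either side of the start site, of 5639 bp (112923581 to 112929219; 233 ChIP reads and 110 input reads) and 5832 bp (112930621 to 112936452; 257 ChIP reads and 122 input reads), with ratios of 2.12 and 2.11. The start site lay in the gap, 276 bases from the first and 1126 bases from the second. Replicate 1 named Jag2 only in a gene body row with 49 ChIP reads and 37 input reads (1.32, 0.847 to 2.09). It also held a peak of 3477 bp upstream (112931746 to 112935222; 111 ChIP reads and 68 input reads, ratio 1.63, a deposited p-value of 0.000853), which lay wholly inside the upstream peak of replicate 2 but was classed as distal and assigned to the neighbour Nudt14. Counting a promoter peak as shared where any peak of the other replicate overlapped it, a rule added after the data were seen, gave 3 of 10 genes with H2AK119ub, Jag2, Dll4 and Hes1, against 7.37% of protein-coding genes. The deposited union list named Jag2 in no H2AK119ub promoter row. No H3K27me3 peak lay within 20 kb of the start site.

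Jag1, the other Jagged ligand, had lower Ring1b ratios than Jag2 in both replicates. It held 127 ChIP reads and 68 input reads over 3260 bp in replicate 1 (chromosome 2, 137114183 to 137117442, mm10) and 75 ChIP reads and 30 input reads over 1732 bp in replicate 2 (137114308 to 137116039). The ratios were 1.87 (1.38 to 2.55) and 2.50 (1.62 to 3.96), or 2.18 ± 0.447 (SD, n = 2), and the deposited p of the first was 0.0336. H2AK119ub was listed in replicate 2 only, with 100 ChIP reads and 47 input reads (2.13, 1.49 to 3.08), and it covered 98.4% of the Ring1b peak of that replicate. As at Notch1 and Jag2, neither H3K27me3 list held a peak within 20 kb.

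Dll4, a ligand best known from sprouting blood vessels, was the member with peaks of all 3 antibodies at its promoter in both replicates. Its H3K27me3 peak was 20591 bp long in replicate 1 (chromosome 2, 119311937 to 119332527, mm10), with 3181 ChIP reads and 236 input reads, and 12588 bp in replicate 2 (119319632 to 119332219), with 1576 ChIP reads and 251 input reads. The ratios were 13.5 (11.8 to 15.5) and 6.28 (5.49 to 7.20) and stood above 85.3% and 85.1% of their lists. Both peaks covered the start site and ended inside the gene.

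Within this domain Ring1b covered 6048 bp in replicate 1 (119321514 to 119327561), with 404 ChIP reads and 120 input reads, and 5733 bp in replicate 2 (119321783 to 119327515), with 304 ChIP reads and 114 input reads. The ratios of 3.37 (2.74 to 4.16) and 2.67 (2.14 to 3.34) gave 3.02 ± 0.495 (SD, n = 2). The largest H2AK119ub peak began further upstream, at 119319772 in replicate 1 (359 ChIP reads, 147 input reads) and 119319687 in replicate 2 (485 ChIP reads, 147 input reads), with ratios of 2.44 (2.01 to 2.98) and 3.30 (2.74 to 4.00). It overlapped 85.9% and 85.6% of the Ring1b peak. Further H2AK119ub peaks lay downstream of the start site in both replicates. Upstream lay a distal peak of 867 bp in replicate 1 (119313287 to 119314153) and another of 4152 bp in replicate 2 (119314293 to 119318444), which did not overlap. The replicate 1 peak had a ratio of 1.43 (0.817 to 2.56) and a deposited p-value of 0.0835, and lay within the H3K27me3 peak of that replicate. The replicate 2 peak had a ratio of 2.1 (1.60 to 2.78) and lay outside the H3K27me3 peak of that replicate. In all, H2AK119ub covered 10040 and 15801 bp within 20 kb of the start site, Ring1b 6048 and 5733 bp, and H3K27me3 20591 and 12588 bp. The neighbour Gm14207 was named in the same promoter rows.

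Dll3, a ligand of the somites that acts on Notch inside the same cell, carried H3K27me3 without a Ring1b promoter peak. H3K27me3 held 715 ChIP reads and 58 input reads over 5852 bp in replicate 1 (chromosome 7, 28297614 to 28303465, mm10) and 386 ChIP reads and 87 input reads over 3734 bp in replicate 2 (28298993 to 28302726). The ratios were 12.3 (9.43 to 16.4) and 4.44 (3.51 to 5.67), above 79.7% and 43.9% of their lists, and both peaks covered the start site at 28301785. In replicates 1 and 2 these peaks held 122 and 103 ChIP reads per kb, and 9.91 and 23.3 input reads per kb. Ring1b was listed in the gene body in replicate 1 only, at 28294030 to 28294962 (53 ChIP reads, 19 input reads) and at 28298443 to 28299011 (28 ChIP reads, 14 input reads, with a deposited p-value of 0.206). Both lay wholly under H3K27me3 peaks of that replicate, the second under the peak named Dll3 and the first under a neighbouring peak named Selenov. The H2AK119ub rows, a promoter peak of 512 bp in replicate 1 and a gene body peak of 1751 bp in replicate 2, did not overlap. Ring1b peaks of 672 and 645 bp about 10 kb upstream were found in both replicates and named Timm50.

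Dll1, the ligand of lateral inhibition in neural and somite tissue, had no promoter row in any list. It was named once, by a distal Ring1b peak of replicate 2 with 39 ChIP reads and 26 input reads (chromosome 17, 15380319 to 15381228, mm10), 3387 bases before the start site. The ratio of 1.5 (0.890 to 2.57) stood above 7.13% of the list, with a deposited p of 0.179.

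Hes1, the bHLH repressor that Notch switches on, had the longest Ring1b peaks of the 10 genes. They were 7673 bp (chromosome 16, 30063079 to 30070751, mm10) and 6000 bp (30063265 to 30069264), and covered the whole gene span (30065357 to 30067796) in both replicates. Replicate 1 held 349 ChIP reads and 162 input reads, and replicate 2 held 258 ChIP reads and 126 input reads. The ratios of 2.15 (1.78 to 2.61) and 2.05 (1.65 to 2.55), or 2.1 ± 0.0754 (SD, n = 2), were below the median of their lists, while the lengths exceeded 93.8% and 90.3% of peaks. H2AK119ub was short in replicate 1, 572 bp with 25 ChIP reads and 11 input reads (2.27, 1.08 to 5.12). In replicate 2 the peak over the same place was 4100 bp long with 182 ChIP reads and 93 input reads (1.96, 1.52 to 2.54), and a second of 3625 bp lay at lower coordinates than the gene span. No H3K27me3 peak lay within 20 kb.

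Ranked by the mean Ring1b ratio, the 6 genes ran from Notch2 (3.65 ± 0.699) through Jag2 (3.46 ± 0.421) and Dll4 (3.02 ± 0.495) to Jag1 (2.18 ± 0.447), Hes1 (2.1 ± 0.0754) and Notch1 (2.05 ± 0.0651; SD, n = 2 each). Neighbours in this order overlapped in their replicate values except Dll4 and Jag1, whose lowest and highest values were 2.67 and 2.50. The maximum height of the peak, a coverage value, put the same 3 genes on top, with 58 and 32 at Notch2, 38 and 27 at Jag2, and 33 and 28 at Dll4, above 22 and 22 at Hes1, 22 and 13 at Notch1, and 14 and 12 at Jag1. A ratio is averaged over the called length, which in replicate 2 was 922 bp at Notch2 and 6000 bp at Hes1.

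The comparison of Notch1 and Jag2 with the rest asked whether this pair, named as active in epidermis, stood apart in its Polycomb marks. Expression was not measured, so the other 8 genes are not shown to be inactive. Notch1 and Jag2 both carried Ring1b in both replicates, an H2AK119ub promoter row in replicate 2 only and no H3K27me3. Among the other 8 genes, Jag1 had the same set of rows, Notch2 differed in having no H2AK119ub promoter row, Hes1 in having one in both replicates, and Dll4 in having one in both replicates and H3K27me3 as well. Notch3, Notch4, Dll1 and Dll3 had no Ring1b promoter row in either replicate. Ring1b promoter rows in both replicates thus lay at 2 of 2 genes of the pair and 4 of 8 others, against 9.17% of protein-coding genes. Dll3 had H3K27me3 promoter rows in both replicates, and Notch4 had one in replicate 1. Notch3 and Dll3 had an H2AK119ub promoter row in replicate 1. Ring1b with H2AK119ub in at least 1 replicate and no H3K27me3 row was found at 2 of 2 genes of the pair (Notch1 and Jag2) and at 2 of 8 others (Jag1 and Hes1), against 1.05% of protein-coding genes. This pattern was read from the rows of the pair itself, so its 2 of 2 was fixed beforehand. With H2AK119ub promoter rows required in both replicates it was 0 of 2 and 1 of 8 (Hes1), against 0.462%. With 2 genes in one class these counts carry no test.

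The mean log2 Ring1b ratio was 1.36 at Notch1 and Jag2 and 1.45 at the other 4 genes in replicate 1, and 1.46 at Notch1 and Jag2 and 1.36 at the others in replicate 2. The difference, Notch1 and Jag2 minus the others, was -0.09 and 0.10, with a mean of 0.0043 ± 0.13 (SD, n = 2), so that its sign differed between replicates. With peaks of a deposited p-value of at most 0.001 Notch1 had no Ring1b call, and the difference, then of Jag2 alone from Notch2, Dll4 and Hes1, was 0.03 in replicate 1 and 0.54 in replicate 2, with a mean of 0.28. The pair differed more from each other: the ratio at Notch1 was 0.661 times that at Jag2 in replicate 1 (0.423 to 1.03) and 0.532 times in replicate 2 (0.266 to 1.08), with intervals that included 1. Of 9 pairs that held Notch1 or Jag2, 6 had the same direction in both replicates and 1 had an interval excluding 1 in both. This was Jag2 over Hes1, at 1.47 (1.00 to 2.18) and 1.84 (1.14 to 3.02), in which the lower bound of replicate 1 reached 1 within rounding. In 3 pairs the interval excluded 1 in replicate 1 and not in replicate 2. Notch1 over Notch2 was 0.505 (0.309 to 0.817) and 0.634 (0.309 to 1.31), Notch1 over Dll4 was 0.621 (0.436 to 0.889) and 0.75 (0.423 to 1.36), and Jag2 over Jag1 was 1.69 (1.07 to 2.69) and 1.5 (0.798 to 2.83). The other 5 pairs had intervals that included 1 in both replicates, such as Notch1 over Hes1 at 0.971 (0.689 to 1.37) and 0.977 (0.552 to 1.77). The intervals are not adjusted for the 9 pairs, and they compare reads within these libraries. The input reads behaved as one shared set in both Ring1b lists. Agreement of a pair between the 2 replicates is therefore not independent in its input reads.

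**Figure D3:**
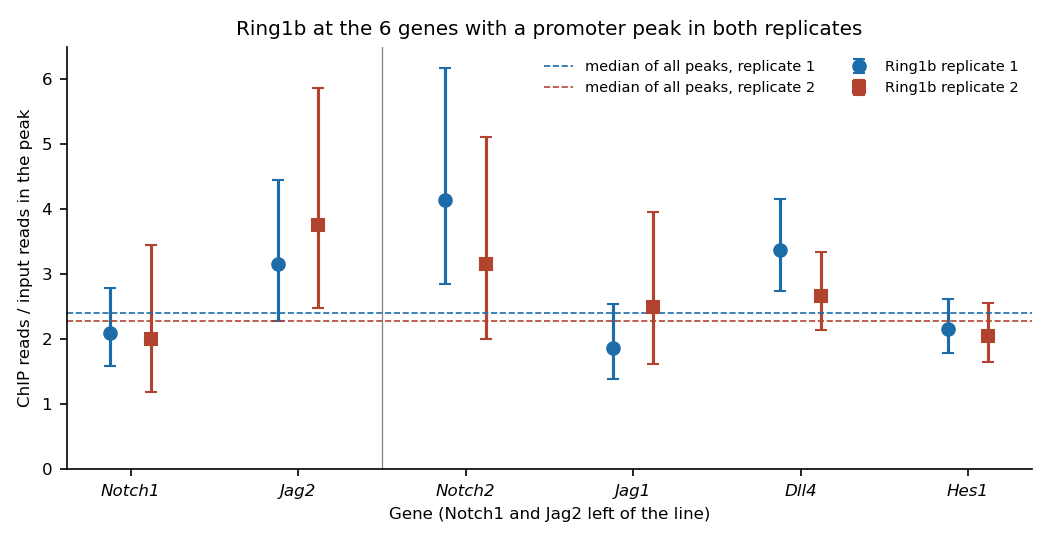
Ring1b ChIP reads over input reads in the promoter peak of each gene, for replicates 1 (circles) and 2 (squares), with exact 95% intervals for counting error; dashed lines are the median ratios of all peaks of each list (2.40 and 2.29). Jag2 stands above both medians and Notch1 below them, so the pair left of the line falls on either side of them, as do the 4 genes to its right.

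CpG content before the start site was counted because the rule for choosing the genes did not use it. Jag2 had 54 CpGs in 250 bases and a GC content of 87.2%, more CpGs than 99.98% of windows. Notch2 had 34 (above 95.5% of windows), Jag1 20, Notch1 16 and Dll4 14. Among the genes without a Ring1b promoter row, Dll1 had 21 and 13 at its 2 start sites, Notch3 17, Dll3 10 and Notch4 4. The ranges of genes with and without Ring1b overlapped, from 14 to 54 and from 4 to 21. Genes with Ring1b in both replicates had a median of 17 over 1950 windows, and genes with Ring1b in neither had 8 over 17177. Hes1 is not included, as the promoter table holds 9 of the 10 genes.

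The core of the Rbpj binding site, TGGGAA or its reverse complement TTCCCA, was searched on these windows, which takes in both strands. It was found in 0 of the 10 windows of the 9 genes, and in 21.1% of 21037 windows. A window without these letters says nothing of sites elsewhere in the gene.

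**Figure D4:**
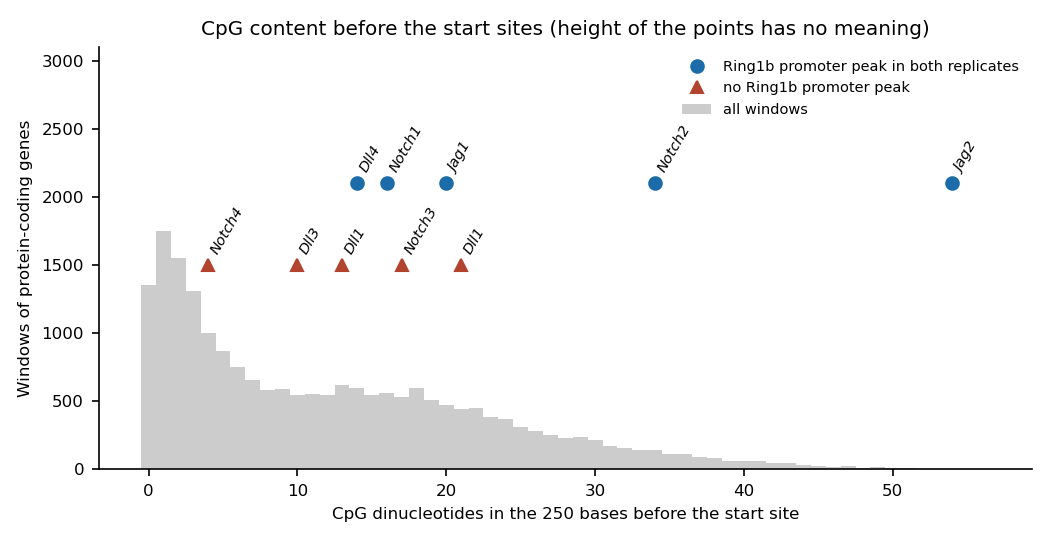
Number of CpGs in the 250 bases before RefSeq start sites: grey bars count all 21037 windows of protein-coding genes, circles mark windows of the genes with a Ring1b promoter peak in both replicates and triangles those of the genes without one. Jag2 with 54 and Notch2 with 34 lie at the upper end of the distribution, and Notch4 with 4 lies lowest of the genes.

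Of 46 other genes of the pathway, 8 had a Ring1b promoter row in both replicates (17.4%, against 9.17% of protein-coding genes). H2AK119ub was found so at 9 genes (against 6.91%), Hes2, Hes3, Hes5, Hes6, Hey1, Hey2, Heyl, Lfng and Dtx1, and H3K27me3 at 8 (against 8.87%), Hes2, Hes3, Hes5, Hey1, Hey2, Dlk1, Dner and Dtx1. All 3 lay at 3 genes, Hes5, Hey1 and Hey2, each a bHLH repressor of the Notch target family (against 3.42%). Ring1b stood at 3.06 ± 0.839 times input at Hes5, 2.98 ± 0.0262 at Hey1 and 3.44 ± 0.248 at Hey2 (SD, n = 2 each). At Dll4 it stood at 3.02 ± 0.495 (n = 2). H3K27me3 at Hey2 had ratios of 12.5 in replicate 1 and 4.10 in replicate 2, against 13.5 and 6.28 at Dll4. Hes6, a further relative, had Ring1b at 4.43 ± 1.34 over only 21 and 8 input reads, with H2AK119ub and no H3K27me3.

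The other genes with Ring1b in both replicates had no row of either histone mark at their promoters. They were Nrarp, a feedback inhibitor of Notch (2.12 ± 0.543), Dtx4, a ubiquitin ligase of the Deltex family (2.1 ± 0.101), and Aph1b and Aph1c, γ-secretase subunits (2.22 ± 0.391 and 2.69 ± 1.1; SD, n = 2 each). Aph1b and Aph1c are close paralogues, so reads may have been split between them and their values are uncertain. Of the 46 genes 23 (50%) were named in at least 1 list, against 29.9% of protein-coding genes. The 23 not named included Maml1, Maml2 and Maml3, the coactivators, Adam10 and Adam17, the proteases that shed the receptor, and Ncstn and Psenen of the γ-secretase complex. Rbpj itself had a Ring1b promoter row in replicate 2 only, and an H3K27me3 row outside the promoter class in 1 replicate.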

How the data were processed

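Basal epidermal cells were assayed by ChIP-seq in 2 replicates per antibody. The genome build is mm10, and MACS2 2.1.0, SAMtools 0.1.19, Bowtie2 2.2.3, Bowtie 1.1.1 and Trim Galore 0.4.1 are named with no role, per the submitters' processing notes. The caller of the lists and the test behind its p-values are not stated. Rows give, per the file headers, coordinates, maximum height (a coverage signal), counts of ChIP and input reads by strand, a p-value, a location class and gene names, all as deposited. The deposited read counts were whole numbers with no normalization described. Coordinates are printed as deposited and treated as closed intervals. Peaks were listed per replicate, and the deposited union lists served as an alternative.

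The members and lists were chosen with earlier results of these data known. A mark was assigned to a gene named in promoter rows of both replicates, and its value was that of the promoter row with the most ChIP reads. Named genes were the 10 members, the other pathway genes with Ring1b in both replicates, and neighbours named at a member. Other genes printed are examples from the fixed lists or were chosen after their values were seen. Gene spans and start sites came from RefSeq (GRCm38.p6), where 7074 of 7264 names matched a current symbol and 178 a synonym. Exons and introns were not told apart. Ratios carry exact 95% Clopper-Pearson intervals and ratios of ratios exact conditional intervals (Python 3.11.15, SciPy 1.17.1), tested on simulated data. With 2 replicates and no reference group no p-value was computed. The other 8 samples were not analysed here.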

Additional observations from a re-analysis of the deposited data

How the results depend on the processing

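The counts for Ring1b (4 to 6 genes), H3K27me3 (2 to 3) and all 3 antibodies (1, Dll4) stayed within 1.5 times of the values given, over rows of any class, a stricter deposited p (at most 0.001), gene spans with 2000 bp flanks, the union lists and single replicates. At the stricter p, Ring1b was kept at Notch2, Jag2, Dll4 and Hes1 and not at Notch1 or Jag1. The count for H2AK119ub, 2 genes, depended on the rule: it was 5 with rows of any class, 5 with gene spans, 6 in the union lists (without Jag2), 1 (Dll4) at the stricter p, and 4 to 5 with either replicate alone (5 without replicate 1, 4 without replicate 2). The count with rows of any class includes Notch2 and Dll3, whose rows did not overlap between replicates. Shares of all protein-coding genes were not counted for the stricter p, the gene spans or the union lists. Nor were they counted for all 3 antibodies in any of these settings. Those counts of members therefore cannot be set against all genes. The log2 difference between Notch1 and Jag2 and the other genes was 0.28 at the stricter p, where it set Jag2 alone against Notch2, Dll4 and Hes1, and -0.09 to 0.10 with single replicates. It was 0.11 with pooled reads and, in settings added after the data were seen, -0.09 for maximum height and -0.0039 for ChIP reads per kb. Summing all rows of a gene could change only the H2AK119ub ratios at Dll4 and Hes1, since every other ratio rested on a single row per list. It moved Hes1 to 1.75, by more than the SD between replicates, and Dll4 to 2.63, by less than that SD. Divided by the median of its list, the mean Ring1b ratio ran between 0.873 at Notch1 and 1.55 at Notch2, a change of scale. The difference between the classes was taken within each replicate list. No paired analysis was possible because beyond that no result came from a test. Ratios from few input reads, such as 13 at Notch1 for H2AK119ub and 11 at Hes1, are limited by depth.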
